A study of Homo sapiens with 6 samples.

Results

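The genes described here encode SR proteins, the kinases that phosphorylate them and other splicing factors that carry arginine and serine repeats. They were taken by symbol from the count table, and all 31 of the 31 chosen genes were found among its 21462 genes. Messenger RNA had been sequenced from 6 libraries of HO-1-N-1, an established human line grown from a squamous carcinoma of the mouth. The control group was 3 libraries of cells given a control siRNA (replicates 1, 3 and 5), and the other group was 3 libraries given an siRNA against Sam68 (replicates 1, 2 and 3), both with the transfection reagent HilyMax. KHDRBS1 encodes Sam68, a STAR-family protein that binds RNA. All 6 libraries are of 1 cell line, and for the siRNA sequences and the time of harvest nothing was found in the labels. Whether libraries came from separate cultures is not stated either, so the p-values cover only how far these libraries varied, part of which may be technical.

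SR proteins bind short enhancer sequences in exons through an RNA recognition motif and bring the U1 snRNP and the U2AF heterodimer to the nearby splice sites through their arginine-serine domain. SRPK kinases phosphorylate that domain in the cytoplasm, which lets the proteins enter the nucleus, and CLK kinases phosphorylate it further there, which releases them from nuclear speckles. Many of these genes limit their own protein by splicing in a poison exon or keeping an intron, so that the mRNA is degraded by nonsense-mediated decay. Sam68 itself has been reported to act on the splicing of an intron in the 3' untranslated region of SRSF1 in colon cancer cells. The counts used here are summed over each gene, so productive and unproductive transcripts cannot be told apart.

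The libraries held 16099488 to 17336651 counts, of which the 31 genes took 0.299% to 0.332%. The 7 epithelial markers checked (KRT5, KRT14, KRT17, TP63, CDH1, EPCAM and SFN) were all detected. Their summed level was 11976 to 12403 TPM in the controls and 12547 to 13109 TPM in the Sam68 siRNA libraries. Markers of fibroblasts, leukocytes and endothelial cells summed to at most 8.37 TPM per cell type in any library, with PDGFRA and KDR at 0. TPM is the authors' level, scaled by transcript length and to a fixed library total. KHDRBS1 stood at 227, 205 and 184 CPM (counts relative to the scaled library size) in controls 1, 3 and 5 and at 26.4, 30.98 and 28.8 CPM in Sam68 siRNA libraries 1, 2 and 3, a log2 fold change of -2.84 (SE 0.089; adjusted p = 1.56e-08 by edgeR's quasi-likelihood test), so the knockdown was present in every library labelled for it. Control replicate 5 stood apart from controls 1 and 3 on the second principal component (-22.4 against 18.1 and 13.1), and 2.27% of its counts came from the mitochondrial genome, against 0.158% to 0.671% in the other libraries. Log2 fold changes of the 31 genes beyond 0.1 in either direction that moved by more than 1.5 times, or turned sign, when it was left out are given with and without it.

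In control cells 5 of the 6 most abundant mRNAs of the set, per transcript length, were those of classical SR proteins. U2AF1 was ranked on its own counts alone. It held 32.04% to 36.4% of the counts of its pair with U2AF1L5, which has an identical coding sequence. The place of U2AF1 in this order, and with it the count of 5, is therefore uncertain. SRSF9, which is a short SR protein related to SRSF1, had the highest level, 365 ± 42.4 TPM (SD, n = 3). GATC overlaps SRSF9 on the other strand and held 27.1% as many counts, so that level is uncertain. SRSF2 followed with 193 ± 8.003 TPM, then U2AF2 with 160.5 ± 4.18, SRSF3 with 142 ± 13.5, SRSF1 with 113 ± 10.3 and SRSF4 with 108 ± 4.09 TPM. U2AF2 and SRSF3 overlapped in their control libraries, as did SRSF1 and SRSF4, so their order is not resolved. The 9 classical SR genes summed to 1161 ± 42.8 TPM in the controls and 1123 ± 22.8 TPM with the Sam68 siRNA. SRPK1 stood at 67.4 ± 3.72 TPM and SRPK2 at 23.7 ± 2.90 TPM, while CLK1, CLK2, CLK3 and CLK4 stood at 22.7 ± 1.91, 17.2 ± 4.07, 8.74 ± 0.226 and 7.65 ± 1.35 TPM. CLK4 was the lowest of the 31 in control mean, below CLK3, and these neighbours overlapped between libraries. SRPK1 thus had the highest level of the 6 kinases by TPM. SRSF8, a classical SR gene related to SRSF2, was the lowest of its group at 33.98 ± 0.367 TPM.

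**Figure D1:**
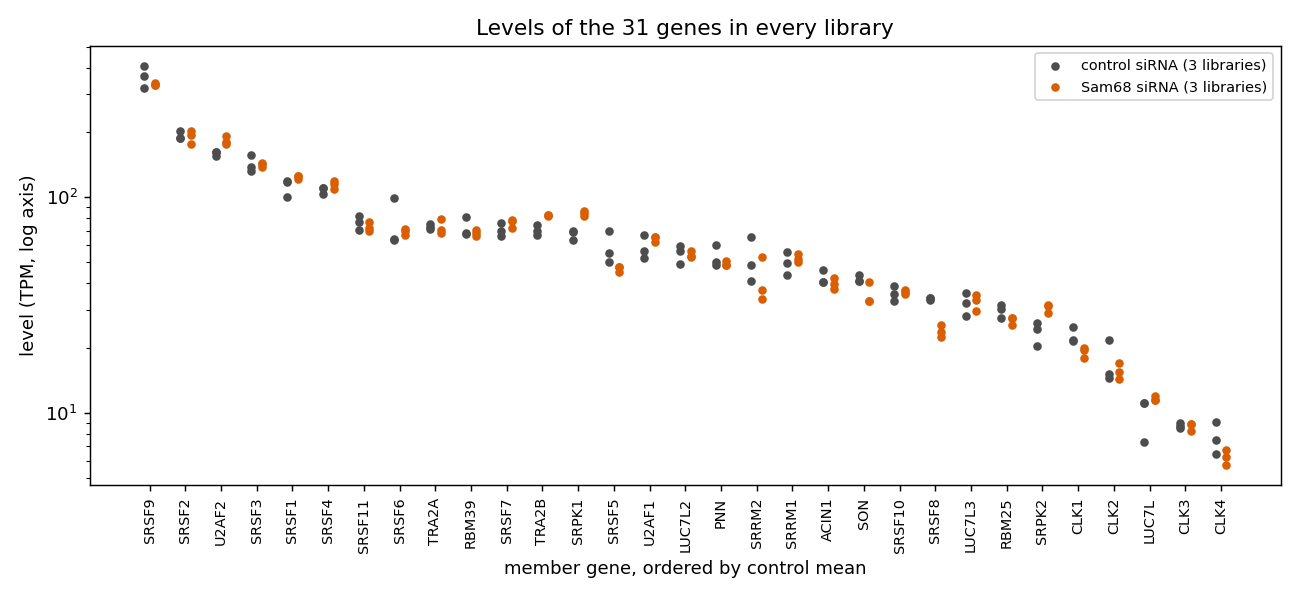
Level of each of the 31 genes in TPM on a log axis, with 1 point for each of the 3 control siRNA libraries and each of the 3 Sam68 siRNA libraries, ordered by the control mean. SRSF9 lies highest and CLK4 lowest; the SRPK1, SRPK2 and SRSF8 points of the groups do not overlap, and SRSF6 and CLK2 each have 1 control library far above the other two.

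Of the 31 genes, all of which passed the filter on low counts, 4 rose and 2 fell with the Sam68 siRNA at an adjusted p below 0.05. SRPK1, SRPK2, TRA2B and U2AF2 rose, and SRSF8 and SON fell. That is 19.4% of the set, near the 19.1% called among all 12351 tested genes (9.33% rose and 9.76% fell). Library values were fully separate in 9 members, against 38% of all tested genes: 5 members were higher (19.3% of tested genes) and 4 lower (18.7%). Changes were small throughout, and no member passed 1.5-fold. Only 708 of the 12351 tested genes did, so this does not set the members apart. The log2 fold changes of the members ran from -0.51 (SRSF8) to 0.37 (SRPK2), with a median of -0.025 beside -0.0048 over all tested genes. In the deposited hg38 coordinates, SRPK1 (ENSG00000096063) lies at chr6:35832966-35921342, SRPK2 (ENSG00000135250) lies at chr7:105110704-105399308, TRA2B (ENSG00000136527) lies at chr3:185914558-185938103, U2AF2 (ENSG00000063244) lies at chr19:55654146-55674715, SRSF8 (ENSG00000263465) lies at chr11:95067197-95071224 and SON (ENSG00000159140) at chr21:33543038-33577481. As RNA was taken from bulk cultures, fewer cells with an mRNA and less of it per cell cannot be told apart.

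**Figure D2:**
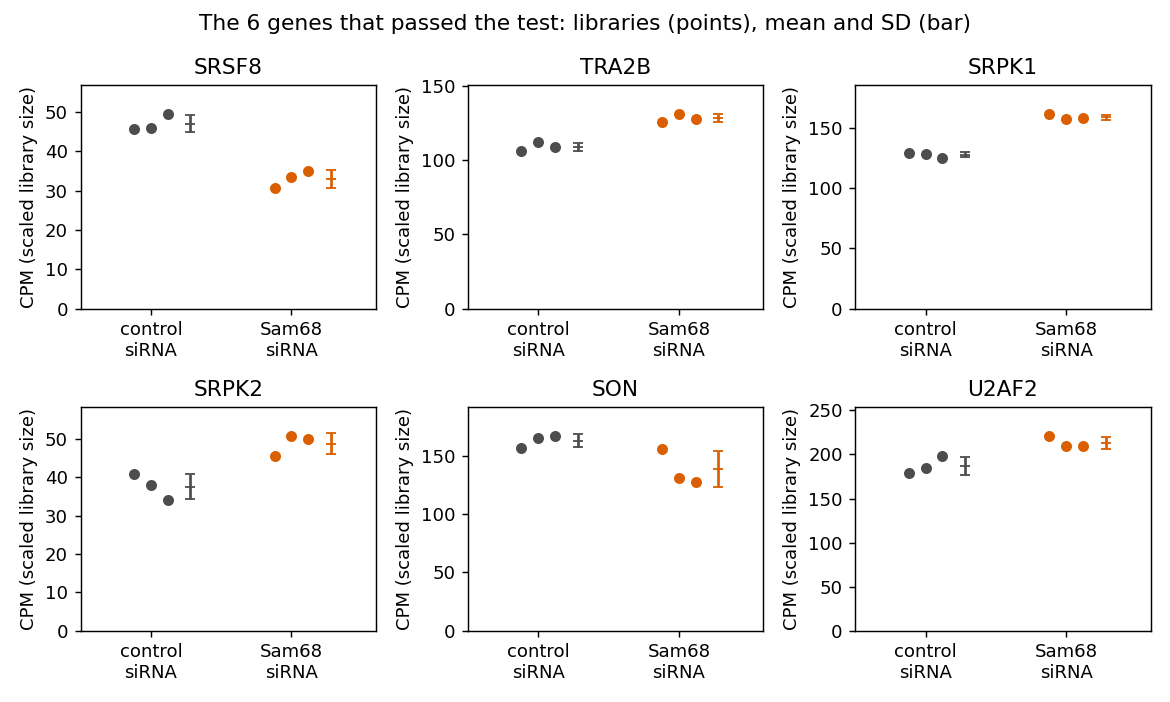
CPM of the 6 genes that passed the test, 1 panel per gene with its axis from 0; points are libraries, bars the mean and SD of 3. The groups do not overlap in any panel, with the widest relative gap for SRSF8 and the narrowest for SON and U2AF2.

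**Figure D3:**
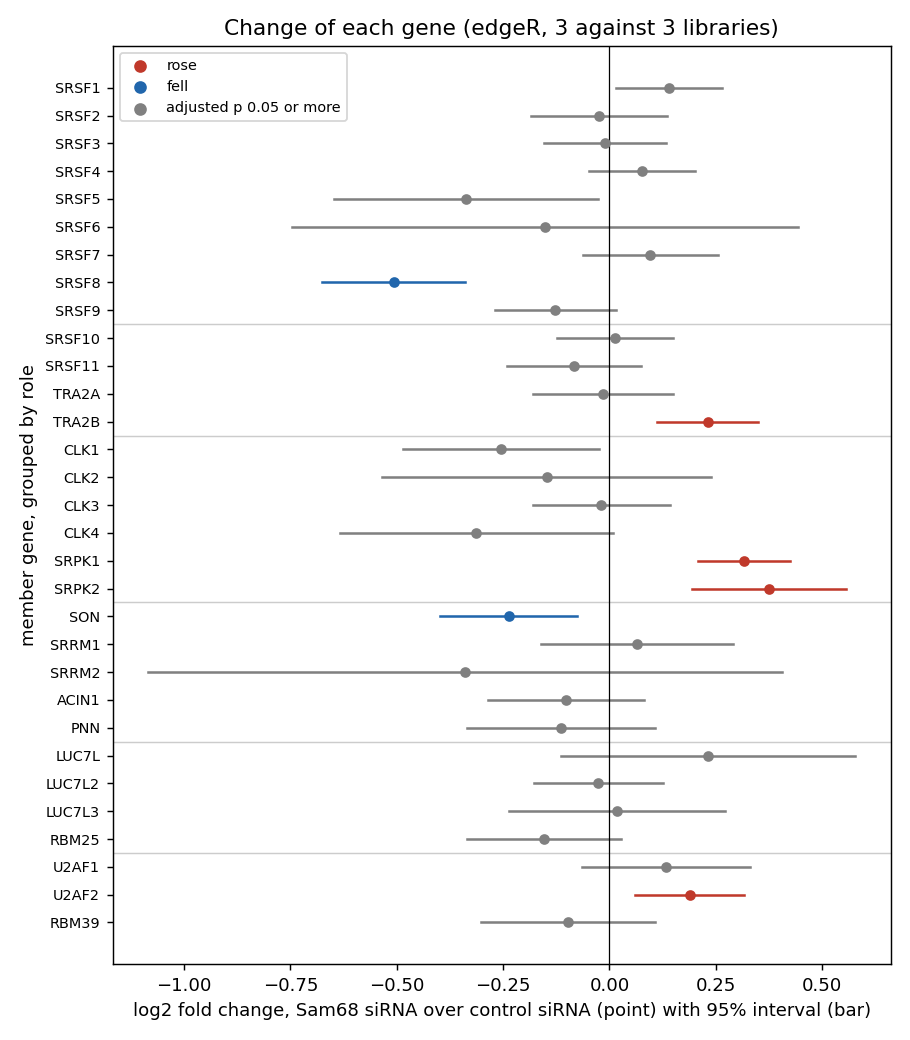
Log2 fold change of Sam68 siRNA over control siRNA for the 31 genes (points) with its 95% interval (bars), in blocks by role. SRPK1, SRPK2, TRA2B and U2AF2 lie right of 0 and SRSF8 and SON left of it among the genes that passed, while SRRM2 and SRSF6 have the widest intervals.

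The SRPK kinases, which load SR proteins with phosphate in the cytoplasm, were both higher. SRPK1 was measured at 129, 128 and 125 CPM in controls 1, 3 and 5 and at 161, 157 and 158 CPM in Sam68 siRNA libraries 1, 2 and 3. The groups were well separated, with less spread within each than between them. Its mean rose from 128 ± 2.12 to 159 ± 2.07 CPM (SD, n = 3 per group; adjusted p = 0.00138 by edgeR; log2 fold change 0.32 with an SE of 0.050), and it passed with any 1 library left out (adjusted p 0.00164 to 0.013). SRPK2 stood at 40.8, 37.99 and 34.1 CPM in the controls and 45.6, 50.8 and 49.9 CPM with the Sam68 siRNA, again without overlap, and control replicate 5 was the lowest. Its mean rose from 37.6 ± 3.37 to 48.8 ± 2.77 CPM (log2 fold change 0.37, SE 0.083, adjusted p = 0.00974). Without control replicate 5 the SRPK2 log2 fold change was 0.31 (adjusted p = 0.0117). Without Sam68 siRNA replicate 2 or 3 SRPK2 missed the threshold (adjusted p = 0.0569 and 0.0524). KMT2E overlaps SRPK2 by 4316 bases on the other strand and held 115% of its counts, with a log2 fold change of 0.0064. The library kit named in the labels is NEBNext Ultra II RNA, taken from general knowledge as the version that does not mark strand. Reads from the shared bases then cannot be assigned, and the SRPK2 level is uncertain.

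The CLK kinases, which act on the same domain inside the nucleus, were not called. CLK1 had 17.9, 17.9 and 22.1 CPM in the controls and 14.96, 16.9 and 16.7 CPM with the Sam68 siRNA. All 3 knockdown libraries lay under all 3 controls, yet the log2 fold change of -0.25 (95% interval -0.48 to -0.025) had an adjusted p of 0.114, and without control replicate 5 it was -0.15 (adjusted p = 0.314). CLK4, a close relative of CLK1, was measured at 12.3, 10.4 and 15.9 CPM and 11.03, 9.73 and 10.3 CPM, where control replicate 5 was the highest library and the groups overlapped (log2 fold change -0.31, adjusted p = 0.161). Without that library the CLK4 value was -0.13 (adjusted p = 0.483). CLK2 had 11.03, 10.4 and 16.9 CPM in the controls against 12.4, 11.6 and 10.5 CPM, with controls 1 and 3 inside or below the range of the knockdown libraries. Its log2 fold change was -0.15 with all libraries and 0.11 without control replicate 5 (adjusted p = 0.6 and 0.572). For CLK3 the value was -0.019 (95% interval -0.18 to 0.14). EDC3 on the other strand held 87.9% as many counts as CLK3, and HCN3 19.4% as many as CLK2, so both levels are uncertain. Summed over the 6 kinases, the level was 147 ± 1.61 TPM in the controls and 165 ± 2.10 TPM with the Sam68 siRNA (SD, n = 3 each). SRPK1 went from 67.4 ± 3.72 to 84.2 ± 2.38 TPM and SRPK2 from 23.7 ± 2.90 to 30.7 ± 1.38 TPM. Each of the 4 CLK means was lower with the Sam68 siRNA, as for CLK1 with 22.7 ± 1.91 and 19.2 ± 1.05 TPM, but none was called. Without control replicate 5 the log2 fold changes of CLK2 and CLK3 were above 0 (0.11 and 0.035), and those of CLK1 and CLK4 stayed below it.

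Among the 9 classical SR proteins SRSF8 alone passed the test. SRSF8 had 45.5, 45.8 and 49.4 CPM in controls 1, 3 and 5 and 30.6, 33.4 and 35.1 CPM in Sam68 siRNA libraries 1, 2 and 3. Every knockdown library was below every control, and control replicate 5 was only slightly above the other two controls. The mean fell from 46.9 ± 2.15 to 33.00 ± 2.27 CPM (SD, n = 3 per group; adjusted p = 0.00116 by edgeR; log2 fold change -0.51 with an SE of 0.077), a level 29.7% lower, and it passed with any 1 library left out (adjusted p 0.000631 to 0.00929). SRSF8 resembles SRSF2, from whose sequence it is thought to have arisen by retrotransposition: 84.8% of 657 aligned coding bases are identical. Reads may therefore be shared between them, and both levels are uncertain. SRSF2 did not pass, at 185, 184 and 212 CPM in the controls and 199, 198 and 175 CPM with the Sam68 siRNA (log2 fold change -0.025, 95% interval -0.18 to 0.13). MFSD11 on the other strand held 10.3% as many counts as SRSF2.

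SRSF1, the founding SR protein and a known oncogene in mouse models, had 223, 222 and 203 CPM in the controls and 238, 236 and 239 CPM in the knockdown libraries. These groups did not overlap, but the log2 fold change of 0.14 (95% interval 0.014 to 0.26) missed the threshold with an adjusted p of 0.111. SRSF5 stood at 77.2, 68.7 and 104 CPM in the controls, highest in control replicate 5, and at 65.8, 65.03 and 66.7 CPM with the Sam68 siRNA. Its log2 fold change was -0.34 with an adjusted p of 0.121 by edgeR; DESeq2 gave an adjusted p of 0.0358, and without control replicate 5 the edgeR value was -0.15 (adjusted p = 0.161). Without control replicate 3 SRSF5 passed in edgeR as well (adjusted p = 0.0267). SRSF6 was measured at 104, 102 and 172 CPM and 108, 119 and 113 CPM. Here control replicate 5 alone was high and the other 5 libraries lay between 102 and 119 CPM; the log2 fold change was -0.15 with it and 0.14 without it (adjusted p = 0.709 and 0.136). SRSF3, SRSF4, SRSF7 and SRSF9 had log2 fold changes of -0.011, 0.076, 0.10 and -0.13, and their 95% intervals stayed within 1.25-fold in either direction.

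TRA2B rose among the SR-like regulators, which bind exonic enhancers or repress splicing but are not counted as classical SR proteins. TRA2B, an activator that binds GAA-rich exons, had 106, 112 and 109 CPM in the controls and 126, 131 and 128 CPM with the Sam68 siRNA, without overlap and with control replicate 5 between the other controls. Its mean rose from 109 ± 2.73 to 128 ± 2.70 CPM (SD, n = 3 per group; adjusted p = 0.013 by edgeR; log2 fold change 0.23 with an SE of 0.054). It missed the threshold without Sam68 siRNA replicate 2 or 3 (adjusted p = 0.0699 and 0.0611; lowest 0.014, without control replicate 5). Its paralogue TRA2A stood at 53.8, 55.6 and 58.5 CPM and 51.3, 54.8 and 60.03 CPM, with overlapping groups (log2 fold change -0.015, 95% interval -0.18 to 0.15). The difference between the paralogues' changes was not tested. SRSF10, which represses splicing when dephosphorylated, and SRSF11 had log2 fold changes of 0.014 and -0.084 and were not called.

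At the 3' splice site, U2AF2 rose. It encodes the large subunit of U2AF, which binds the polypyrimidine tract. The libraries held 179, 185 and 199 CPM (controls 1, 3 and 5) and 221, 210.0 and 209 CPM (Sam68 siRNA libraries 1, 2 and 3), with no overlap but a narrow gap. The mean rose from 187 ± 10.3 to 213 ± 6.66 CPM (SD, n = 3 per group; adjusted p = 0.044 by edgeR; log2 fold change 0.19 with an SE of 0.059). This call held without control replicate 5 (adjusted p = 0.0109) but not without any other single library (adjusted p 0.0935 to 0.141). Its partner U2AF1, the small subunit that reads the AG dinucleotide, was listed at 42.95, 33.4 and 38.6 CPM and 42.3, 41.1 and 42.5 CPM (log2 fold change 0.13, adjusted p = 0.333). The table also held U2AF1L5, whose coding sequence is identical to that of U2AF1 over all 723 bases. U2AF1 held 32.04% to 36.4% of the counts of the pair, so neither level can be read alone. U2AF1L5 stood at 75.3, 70.8 and 67.3 CPM in the controls and 83.3, 84.4 and 80.7 CPM with the Sam68 siRNA, and it passed the test (log2 fold change 0.22, adjusted p = 0.0385). With both summed, a step added after the data were seen, controls 1, 3 and 5 held 118, 104 and 106 CPM and the Sam68 siRNA libraries 126, 126 and 123 CPM. These sums did not overlap, and their log2 fold change of 0.19 (SE 0.062) missed the threshold (adjusted p = 0.0536). RBM39, a U2AF2-related factor, stood at 165, 160.2 and 208 CPM in the controls, highest in control replicate 5, and 159, 169 and 171 CPM with the Sam68 siRNA (log2 fold change -0.10, not called).

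The scaffolds with arginine-serine repeats were led by the fall of SON, a large nuclear speckle protein needed to splice weak sites. SON stood at 157, 165 and 167 CPM in the controls and 156, 131 and 128 CPM with the Sam68 siRNA. Sam68 siRNA library 1 came close to the lowest control, and libraries 2 and 3 were clearly lower. The mean fell from 163 ± 5.27 to 138 ± 15.4 CPM (SD, n = 3 per group; adjusted p = 0.044 by edgeR; log2 fold change -0.24 with an SE of 0.074), and of the 6 fits that leave out 1 library only the one without Sam68 siRNA replicate 1 kept the call (adjusted p 0.00929 to 0.18; without control replicate 5, 0.0622). GART and DONSON overlap SON on the other strand and held 102% and 19% as many counts, with log2 fold changes of 0.24 and 0.29, so the SON level is uncertain. SRRM2, the other large speckle scaffold, had the widest interval of the set: 134, 156 and 228 CPM in the controls and 173, 114 and 122 CPM in the knockdown libraries. The groups overlapped, with control replicate 5 the highest, and the 95% interval of the log2 fold change ran from -1.08 to 0.41. The SRRM2 value was -0.34 with all libraries and -0.088 without control replicate 5 (adjusted p = 0.473 and 0.845). SRRM1, a coactivator that bridges exonic enhancers and the spliceosome, had a value of 0.064. Without control replicate 5 the SRRM1 value was 0.19 (95% interval 0.033 to 0.35, adjusted p = 0.081 by edgeR). PNN and ACIN1, which take part in exon junction complexes, had values of -0.11 and -0.10, and of 0.028 and 0.00085 without control replicate 5. None of these 3 was called, and C14orf119 and ELOB, which overlap ACIN1 and SRRM2 on the other strand, held 57.1% and 61.5% as many counts.

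No gene of the 4 proteins that act at the 5' splice site passed: edgeR called 0, 0 had an unadjusted p below 0.05, and DESeq2 called 0. LUC7L, LUC7L2 and LUC7L3 are relatives of a yeast U1 snRNP protein, and RBM25 binds exonic enhancers and the U1 snRNP. LUC7L had 14.2, 9.30 and 15.2 CPM in the controls and 14.7, 15.9 and 14.8 CPM with the Sam68 siRNA, with control replicate 3 alone low (log2 fold change 0.23, 95% interval -0.11 to 0.58). Without control replicate 5 the LUC7L value was 0.37 (adjusted p = 0.0909). LUC7L2, LUC7L3 and RBM25 had values of -0.026, 0.018 and -0.15, and the last 2 were 0.14 and -0.072 without control replicate 5. The read-through locus FMC1-LUC7L2, which shares exons with LUC7L2, held 37% as many counts and had a log2 fold change of 0.40, so the LUC7L2 level is uncertain.

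How firmly the remaining 25 genes can be called small in their change differed. For 15 of them the 95% interval stayed within 1.25-fold in either direction, and for 21 within 1.5-fold. Among the 15, the intervals of SRRM1 (0.033 to 0.35) and LUC7L3 (-0.040 to 0.33) reached past 1.25-fold without control replicate 5. The intervals of SRSF5, SRSF6, CLK4 and SRRM2 reached past 1.5-fold. Without control replicate 5 those of SRSF5, SRSF6 and CLK4 lay within 1.5-fold, and those of SRRM2 (-0.79 to 0.62) and LUC7L (0.054 to 0.68) reached past it. Of the 31 genes, 5 had in the authors' deposited table an FDR below 0.05, against 14.7% of the genes compared there. These were SRSF8, SRPK1, SRPK2, TRA2B and U2AF2, with FDR values in the authors' deposited table of 0.00013, 0.000151, 0.00688, 0.0107 and 0.0396; for SON the authors' deposited table gave 0.111.

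Control replicate 5 set many of these values apart. Taking a log2 difference of 0.3 from the mean of controls 1 and 3, a step chosen after the data were seen, 11 of the 31 genes were higher in control replicate 5 and 0 were lower. Over all tested genes 10.1% were higher and 8.92% lower by that much. The 11 were SRSF6 (0.74), CLK2 (0.66), SRRM2 (0.66), SRSF5 (0.51) and CLK4 (0.49), followed by LUC7L, PNN, SRRM1, RBM39, LUC7L3 and CLK1 with 0.30 to 0.40. Among the 6 called genes it differed from controls 1 and 3 by -0.21 (SRPK2) to 0.13 (U2AF2). Leaving it out turned the sign of 9 uncalled log2 fold changes (SRSF2, SRSF6, SRSF10, TRA2A, CLK2, CLK3, ACIN1, PNN and RBM39) and of no called one, and left 4 risen and 1 fallen. Of all genes tested without it, 21.4% were called. The part that this library's high mitochondrial share or other differences play in these values was not tested.

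**Figure D4:**
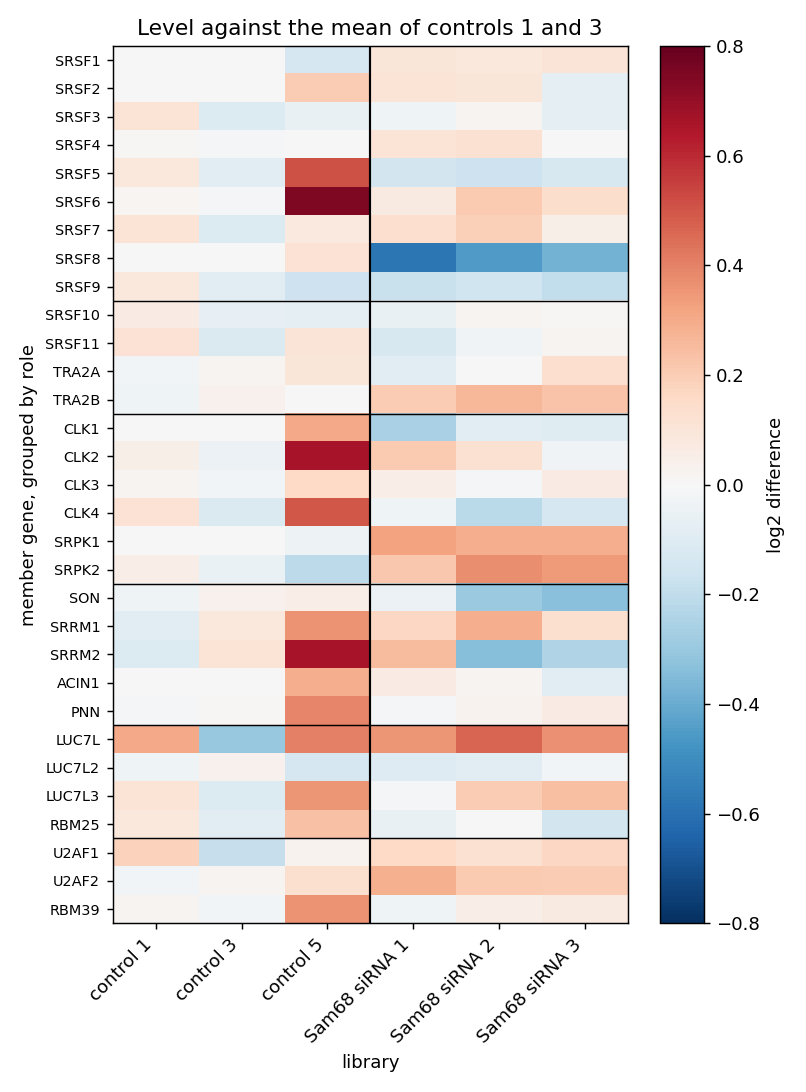
Log2 difference of each gene in each library from the mean of controls 1 and 3, with roles separated by lines and groups by the thick line. Control replicate 5 is the reddest column for SRSF5, SRSF6, CLK2, CLK4 and SRRM2, while SRPK1, SRPK2 and TRA2B are red and SRSF8 blue in all 3 Sam68 siRNA libraries.

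**Figure D5:**
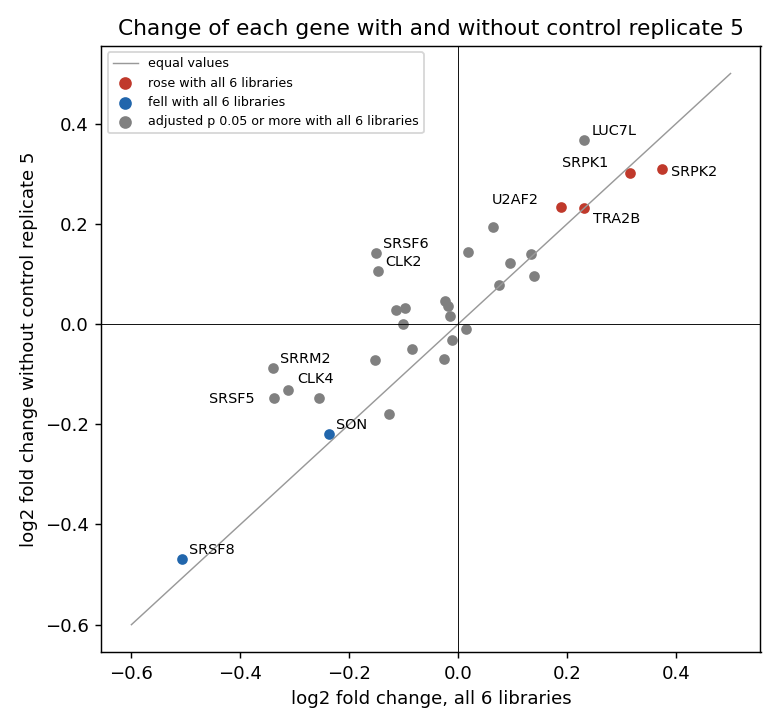
Log2 fold change of each gene with all 6 libraries (horizontal) against the value without control replicate 5 (vertical), with the line of equal values. The 6 called genes lie close to the line, and SRSF6 and CLK2 move from below 0 to above it.

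The genes share features of their annotated transcripts that were not used to choose them. In GENCODE 29, 29 of the 31 (93.5%) have at least 1 transcript classed as nonsense-mediated decay, against 43% of the 12244 tested genes with a coding transcript, and 27 (87.1%) have 1 classed as retained intron, against 57.4%. Among the 52 tested genes of the wider list of splicing genes described below, the shares were 59.6% and 71.2%. The number of transcripts annotated per gene, which differs between genes, was not taken into account. RBM39 has 15 decay transcripts, LUC7L3 has 8 and SRSF7 has 6, whereas CLK2 and PNN have none. The 6 called genes have 1 to 3 each, within the range of the uncalled ones. These shares are given as a description. Sam68 is known to bind UAAA and UUAA in RNA. TAAA and TTAA, counted on the transcript strand with overlapping matches each counted, occurred 23.3 times per kilobase of 3' UTR in the median member and 14.6 times in the median of 11954 tested genes, whose 3' UTRs had a median of 57.8% A or T against 64.3% in the members. Among the called genes the rate ran from 4.35 (U2AF2) to 23.7 (SON), with 15.9 in SRSF8, 16.7 in SRPK1, 21.0 in TRA2B and 23.3 in SRPK2.

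Heptamers GCAGTAC and ACTGATT came from an earlier search of these same libraries. They were chosen on these data, so their presence here is a description only. GCAGTAC lay in the coding sequence of 4 members (12.9%, against 12.4% of tested genes) and the 3' UTR of none (against 4.57%). Of these 4, SRPK1 and U2AF2 rose, and SRSF7 and SRRM2 were not called. The sites are printed, with the heptamer in capitals, to let the sequences of risen and uncalled genes be compared; positions are hg38 and sequences from the GENCODE 29 transcripts.
SRPK1 (chr6:35872622-35872650, minus strand): tcagtgaatgaGCAGTACattcggaggct
U2AF2 (chr19:55660589-55660617, plus strand): atcaccccaatGCAGTACaaggccatgca
SRSF7 (chr2:38750019-38750047, minus strand): atgcagaagatGCAGTACgaggactggat
SRRM2 (chr16:2765475-2765503, plus strand): tgaaggaagcaGCAGTACcgagtcctctc
They lie in exon 8 of SRPK1, exon 4 of U2AF2, exon 2 of SRSF7 and exon 11 of SRRM2. RBM25, not called, holds the heptamer in its 5' UTR. SRPK2 and TRA2B, which also rose, hold no GCAGTAC in the transcript searched.

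ACTGATT lay in the 3' UTR of 5 members (16.1%, against 13.5% of tested genes), of which SRSF8 fell and SRSF2, SRSF7, SRSF11 and LUC7L3 were not called. It also lay in the coding sequence of SON, which fell, and of U2AF2, which rose (6.45%, against 7.16%). The U2AF2 match crosses the junction of exons 3 and 4 of the spliced transcript (chr19:55660216-55660516) and is not printed. The sites are shown to set the fallen genes beside uncalled genes with the same letters, ACTGATT in capitals.
SRSF8 (chr11:95071081-95071109, plus strand): attttgtgtgtACTGATTattttgctcaa
SRSF2 (chr17:76735808-76735836, minus strand): tgcagattttaACTGATTtggctgatcct
SRSF7 (chr2:38744510-38744538, minus strand): aactaaacgaaACTGATTaaatgtatgag
SRSF11 (chr1:70251186-70251214, plus strand): gtaggaaatgcACTGATTgcatgttattg
LUC7L3 (chr17:50754026-50754054, plus strand): actgaagaggaACTGATTgttgctaacca
SON (chr21:33552902-33552930, plus strand): cagcagtgcctACTGATTattcagtgtca
The SRSF8 site is in exon 1, the only exon of the transcript used, and SON holds a further copy in its 5' UTR. SRSF2 and SRSF8, although close relatives in their coding sequence, both carry the heptamer, with different flanking bases and log2 fold changes of -0.025 and -0.51. The same letters were thus found in genes that fell, rose and were not called.

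A wider list of 57 genes gave the rest of this machinery, such as other RS-repeat proteins, kinases of the same family and early spliceosome factors. SRSF12, SRPK3, SRRM3, SRRM4 and SRRM5 did not pass the filter on low counts. Of the 52 that were tested 2 rose and 5 fell (13.5%, beside the background of 19.1%), with a median log2 fold change of -0.027. RNPS1, an SR-related protein of the exon junction complex, stood at 138, 142 and 143 CPM in the controls and 182, 186 and 175 CPM with the Sam68 siRNA, with no overlap (adjusted p = 0.000847 by edgeR; log2 fold change 0.36 with an SE of 0.052). It passed with any 1 library left out (adjusted p 0.000354 to 0.0105). DYRK2, a kinase related to the CLKs, rose by 0.26 in log2 (adjusted p = 0.0342). U2SURP, an SR-related protein of the U2 snRNP, fell from 134 ± 7.74 to 112 ± 3.78 CPM (adjusted p = 0.0123). CDK11B and CDK11A, kinases that act on splicing and transcription, fell from 63.04 ± 3.71 to 49.9 ± 2.29 and from 42.4 ± 5.09 to 32.7 ± 1.55 CPM (adjusted p = 0.00825 and 0.0163). Their coding sequences are 98.9% identical, so reads could be assigned to either and both are uncertain. SCAF1 and DYRK1B fell, with log2 fold changes of -0.23 and -0.49 (adjusted p = 0.0276 and 0.0296). DYRK2, SCAF1 and DYRK1B each kept the call in 1 of the 6 fits that leave out a library (without control replicate 3, 1 and 5), with adjusted p up to 0.13, 0.119 and 0.108. U2SURP lost it without Sam68 siRNA replicate 1 (adjusted p = 0.0532) and CDK11A without replicate 2 or 3 (adjusted p = 0.0539 and 0.0794), while CDK11B kept it in all 6. Without control replicate 5, 4 genes of the list rose and 6 fell, where 21.4% of all genes tested in that fit were called.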

How the data were processed

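Poly(A) RNA was sequenced in 3 control siRNA and 3 Sam68 siRNA libraries. The authors deposited raw counts per gene and, per the file headers, TPM values beside them. A log2 fold change and an FDR p-value per gene from the authors' comparison were also deposited, with the test not named. Per the submitters' processing notes, hg38 was the genome. Aligner, counting tool and annotation are unstated: not given in the sources used here. Per the labels, the kit was NEBNext Ultra II RNA. That this kit does not mark strand comes from general knowledge and was not read from the labels.

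Counts were tested with edgeR 4.0.16 in R 4.3.3: filterByExpr (minimum count 10, minimum total 15), TMM scaling, quasi-likelihood F-test with robust estimation, Benjamini-Hochberg adjustment over all 12351 tested genes and a threshold of 0.05. CPM is counts relative to the TMM-scaled library size, and intervals are 95%. Alternatives used limma 3.58.1 and DESeq2 1.42.0; sequences were read with Python 3.11.15 and aligned with Biopython 1.88. An exact two-sided permutation test of 3 against 3 libraries cannot go below p = 0.1. Each of the 6 called genes reached that value, and so did SRSF1, SRSF5 and CLK1, which were not called. The fit was tested on simulated data with known changes. It called 32% of the 1.25-fold changes and 75.5% of the 1.5-fold changes, so a missing call does not exclude a small change. The members, lists and alternatives were chosen with earlier results of these data known. The naming rule took all members, KHDRBS1, cell markers and called genes of the wider list; genes that overlap or resemble members were named besides, after their values were seen. Alternatives were other scalings, no filter, DESeq2, log2 TPM with limma, the replicate block, leaving out each library and, added later, U2AF1 summed with U2AF1L5. One protein-coding GENCODE 29 basic transcript per gene was searched, an APPRIS principal one where there is one and then that with the longest 3' UTR. No library pair looked like 1 library deposited more than once (chi-square per degree of freedom 3.02 to 44.7).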

Additional observations from a re-analysis of the deposited data

How the results depend on the processing

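Under RLE and upper-quartile scaling and without a filter on low counts the same 4 members rose and the same 2 fell, and DESeq2 called SRSF5 as well. SRPK1 and SRSF8 passed under all 14 alternatives. The 31 signs of the authors' deposited table equal those found here. With 1 library left out, 1112 to 2666 genes changed (1112 without Sam68 siRNA replicate 2, 1195 without replicate 3, 1537 without replicate 1, 2666 without control replicate 5), beside 2358 in all. Between 1 and 4 members rose (1 without Sam68 siRNA replicate 2 or 3) and 1 or 2 fell; 1 to 4 genes of the wider list rose and 2 to 6 fell. Log2 TPM was tested in 3 settings (pseudocount 1 or 0.1 with a filter, 1 without). In each, 1 member and 3 wider genes fell and 1 wider gene rose. Without the filter 1056 genes changed and 1 member rose. U2AF2 (adjusted p 0.0658 to 0.0853 by limma) and SON (0.112 to 0.179) passed in none of the 3 settings. The cause of these differences was not tested.

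Replicate numbers 1 and 3 occur in both groups, but no label says that they pair libraries, and same-numbered libraries deviated from their group means with correlations of -0.146 and 0.0858. With the replicate number as a block, 1 residual degree of freedom remained and 1046 genes changed. In that fit 1 member rose and 1 fell. SRPK2, TRA2B, U2AF2 and SON missed the threshold there (adjusted p = 0.116, 0.129, 0.0996 and 0.262 by edgeR). In the wider list 1 rose and 0 fell by edgeR (8 at an unadjusted p below 0.05, and 4 by DESeq2 without the block).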
